A study of Mus musculus with 6 samples.

Results

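The 9 genes described here mark the progenitor cells that give rise to the neurons and glia of the hippocampus, and they were listed by name, with earlier results of these data known. Of the 9, 7 are markers of radial glia (*Pax6*, *Sox2*, *Nes*, *Vim*, *Hopx*, *Fabp7* and *Tnc*) and 2 are markers of intermediate progenitors (*Eomes* and *Neurog2*), out of 52230 annotated genes. RNA was sequenced from the hippocampi of newborn mice (postnatal day 0, P0), with 3 *Mov10* Deletion libraries and 3 libraries of wild-type (WT) C57BL/6 pups. MOV10 is an RNA helicase that works with Argonaute proteins in microRNA silencing. In the *Mov10* Deletion mouse a floxed *Mov10* allele, from which *Emx1*-Cre removes exons, was crossed onto a germline mutant *Mov10* allele. *Emx1* is active in the radial glia of the dorsal forebrain and in the excitatory neurons and glia that come from them. Interneurons, vessels, meninges and microglia have other origins and so kept the floxed allele, while the germline allele is carried by every cell of the pup. Each library pooled pups, and neither sex nor litter was given.

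Radial glia line the ventricle, divide, and send a long fibre to the brain surface that guides migrating neurons. They produce neurons through intermediate progenitors, which divide away from the ventricle, and around birth many of them turn to making astrocytes. In the hippocampus a part of this population moves into the dentate gyrus and becomes the stem cells that make granule neurons throughout life. At P0 the tissue therefore holds neurogenic and gliogenic progenitors side by side. Several radial glia markers, *Fabp7*, *Tnc*, *Vim*, *Hopx* and *Sox2* among them, stay on in astrocytes, and *Vim* is also made by vascular and meningeal cells. In bulk tissue, fewer cells of a type and less RNA per cell cannot be told apart.

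The libraries held between 71400300 and 86207971 estimated counts, and 16745 genes passed the filter on low values and were tested with limma-trend. *Mov10* itself averaged 2.22 ± 0.196 CPM (counts scaled to the library total, mean ± SD, n = 3) in the Deletion libraries against 4.79 ± 0.0321 CPM in WT (log2 fold change -1.11, limma-trend, adjusted p = 0.00115). All 9 markers passed the filter, with the lowest at 1550 estimated counts in a library, for *Neurog2*. The hippocampal neuron markers were well expressed, led by *Neurod6* at 559 ± 23.8 TPM in WT (SD, n = 3), a unit corrected for transcript length as well as depth. Deletion library 1 stood apart in markers of tissue around the hippocampus. Its summed meningeal fibroblast markers came to 362.5 CPM against 105 to 163 CPM in the other libraries, and its summed choroid plexus markers to 54.9 CPM against 3.61 to 19.2 CPM. Results that turn on this library are given with and without it. The pools also differed in sex composition. A score of *Xist* minus the mean of Y-linked genes, scaled over the 6 libraries, was -1.50, 0.89 and -0.99 with the deletion against 0.27, 0.58 and 0.76 in WT, so that Deletion libraries 1 and 3 lay below every WT library.

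On the scale corrected for transcript length, *Fabp7*, a fatty acid binding protein of the radial glial cytoplasm, was by far the most abundant of the 9. It stood at 1089 ± 117 TPM in WT (SD, n = 3), followed by the intermediate filament gene *Vim* at 368 ± 22.8 TPM and *Hopx*, a small homeodomain protein, at 235 ± 14.9 TPM. *Tnc*, which encodes the matrix glycoprotein tenascin-C, was at 88.7 ± 4.88 TPM and the pluripotency and stem cell factor *Sox2* at 73.8 ± 2.37 TPM. These 5 levels did not overlap between neighbours in any WT library. Below them stood *Eomes* at 52.2 ± 2.20 TPM, the intermediate filament gene *Nes* at 36.2 ± 0.971 TPM, the proneural factor *Neurog2* at 24.5 ± 4.11 TPM and the paired-box factor *Pax6* at 24.0 ± 3.33 TPM. The values of *Neurog2* and *Pax6* overlapped, so their order was within the spread of the libraries. The order of the means was the same in *Mov10* Deletion, where *Fabp7* stood at 1539 ± 101 TPM, *Tnc* at 124 ± 8.68 TPM and *Pax6* at 20.0 ± 1.63 TPM. There *Neurog2*, at 19.6 to 34.5 TPM, overlapped both *Nes* and *Pax6*.

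**Figure D1:**
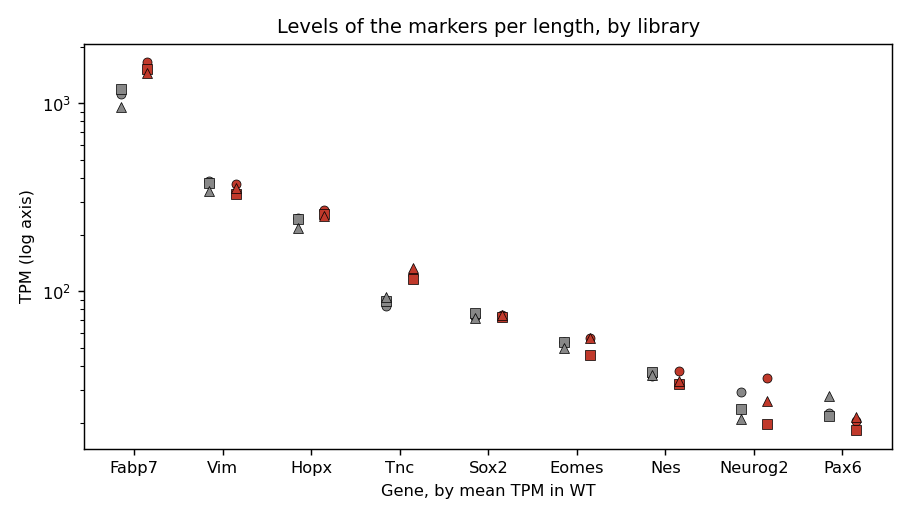
Level of each marker in TPM (log axis) in the WT (grey) and *Mov10* Deletion (red) libraries, ordered by the WT mean, with circles, squares and triangles for replicates 1, 2 and 3, which were not paired. *Fabp7* lay highest in all 6 libraries, and *Neurog2* and *Pax6* shared the lowest range.

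Of the 9 markers, 4 passed the threshold of an adjusted p of 0.05 between *Mov10* Deletion and WT, where 24.7% of all tested genes did. *Fabp7* and *Tnc* rose, and *Pax6* and *Vim* fell. Over all genes 12.6% were called higher and 12.1% lower, so the calls among the markers were split in direction as those of all genes were. The CPM of the groups did not overlap for 5 of the 9 (*Fabp7*, *Tnc* and *Hopx* higher, *Pax6* and *Vim* lower), where 41.6% of all tested genes did not overlap (20.4% higher and 21.2% lower). The rises of *Fabp7* and *Tnc* passed under each of the 25 other ways of fitting that were tried, while the falls of *Pax6* and *Vim* passed under 8 and 9 of them. Without the factors of unwanted variation, which the study's methods add to the fit, 2 of the 9 passed, against 21.0% of all genes. By edgeR's quasi-likelihood test 2 passed (20.8% of all genes), and by DESeq2 4 passed (24.0% of all genes). Without Deletion library 1, 5 passed with 1 factor, *Nes* being added, and 3 without factors, against 22.1% and 18.3% of all genes. With the sex score in place of the factors 2 passed, *Fabp7* and *Tnc*, against 8.15% of all genes.

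The largest changes were in *Fabp7* and *Tnc*. *Fabp7* (ENSMUSG00000019874.13, chromosome 10, 57660956 to 57664554, plus strand, GRCm39) is a Notch target in radial glia and binds polyunsaturated fatty acids. Its 3 Deletion libraries gave 385.5, 362.5 and 335.7 CPM, and its 3 WT libraries gave 254.4, 271.3 and 229.9 CPM. Every Deletion library lay above every WT library, and the lowest Deletion value exceeded the highest WT value by more than either group's SD. The means were 361.2 ± 24.9 and 251.9 ± 20.8 CPM (SD, n = 3 each). *Fabp7* thus rose by 0.48 on the log2 scale (standard error 0.06), or by 39.9%, with a 95% interval of 1.28- to 1.53-fold (limma-trend, adjusted p = 0.00210). Without the factors it was 0.52 (limma-trend, adjusted p = 0.00211).

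*Tnc* (ENSMUSG00000028364.17, chromosome 4, 63878014 to 63965443, minus strand, GRCm39) encodes a secreted glycoprotein of the stem cell niche and of immature astrocytes. The Deletion libraries held 500.0, 492.9 and 547.1 CPM of it, and the WT libraries 340.0, 366.8 and 398.2 CPM. The groups again stood clear of each other. The means were 513.3 ± 29.5 and 368.3 ± 29.1 CPM (SD, n = 3 each), a log2 fold change of 0.52 (standard error 0.05), or 1.44-fold with a 95% interval of 1.33 to 1.55 (limma-trend, adjusted p = 0.00115). Without the factors the log2 fold change of *Tnc* was 0.48 (limma-trend, adjusted p = 0.00218). Leaving out Deletion library 1, with 1 factor, left *Fabp7* at 0.45 and *Tnc* at 0.54 on the log2 scale, with adjusted p = 0.00276 and 0.00113 (limma-trend).

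**Figure D2:**
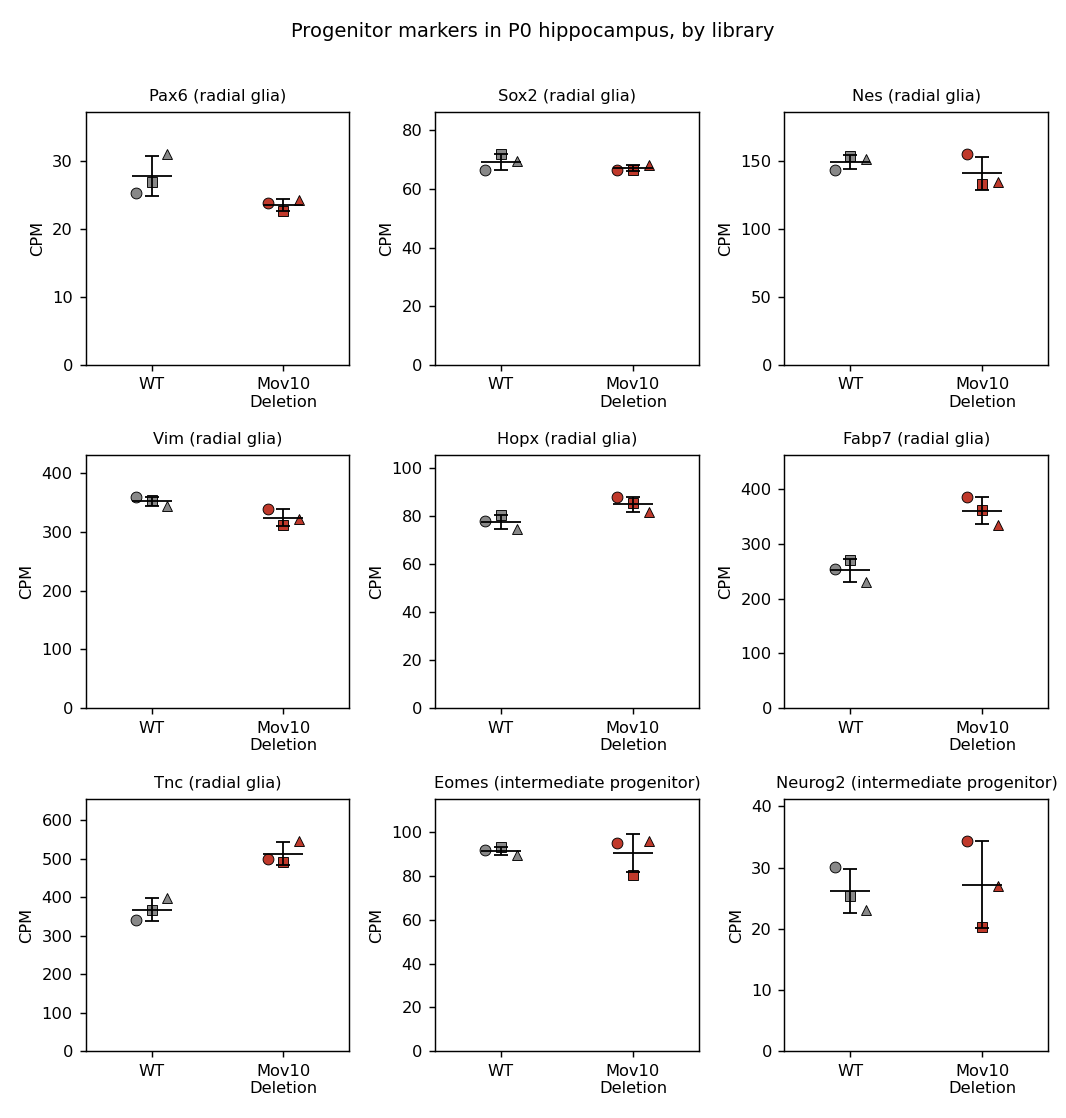
CPM of each marker in the WT (grey) and *Mov10* Deletion (red) libraries, with circles, squares and triangles for replicates 1, 2 and 3 (not paired) and bars for the mean ± SD (n = 3); each vertical axis starts at 0. *Fabp7* (335.7 to 385.5 against 229.9 to 271.3 CPM) and *Tnc* (492.9 to 547.1 against 340.0 to 398.2 CPM) show the widest gaps between groups.

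Both rises were carried by the main coding transcripts. *Fabp7-201* held 99.5% of the TPM of its gene and went from 1084 ± 116 TPM in WT to 1531 ± 98.4 TPM in *Mov10* Deletion (SD, n = 3 each). *Tnc* was divided evenly between *Tnc-203* and *Tnc-204*, which rose by 0.46 and 0.48 on the log2 scale. In the test over single transcripts, which adjusts over many more features, these log2 fold changes gave adjusted p = 0.0675 for *Fabp7-201*, 0.0675 for *Tnc-203* and 0.0692 for *Tnc-204* (limma-trend), so each missed the threshold. Transcript usage, the division of a gene between its transcripts, passed for none of the 7 markers with more than 1 tested transcript, where 7.60% of 10338 genes did (limma diffSplice). At an unadjusted p below 0.05, 1 of the 7 passed, *Nes*, where 24.1% of all genes did. For *Fabp7* the adjusted p was 0.248 and for *Tnc* 0.942.

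Because *Fabp7* and *Tnc* moved together, the sequence before their start sites is shown with that of *Vim*, which fell, and *Eomes*, which did not pass the test. RefSeq promoter windows, from 250 bases before to 50 bases after the start site on GRCm38.p6, matched all 9 markers in 12 windows, and 3 genes had 2 windows. Capitals mark TGGGAA, the core bound by RBPJ, the DNA-binding partner of Notch, on either strand (TTCCCA on the opposite one). The windows are chr10:57784673-57784972 (plus strand) for *Fabp7*, chr4:64046966-64047265 (minus strand) for *Tnc*, chr2:13574061-13574360 (plus strand) for *Vim* and chr9:118477939-118478238 (plus strand) for *Eomes*, each written 5′ to 3′ on the gene's strand.
Fabp7: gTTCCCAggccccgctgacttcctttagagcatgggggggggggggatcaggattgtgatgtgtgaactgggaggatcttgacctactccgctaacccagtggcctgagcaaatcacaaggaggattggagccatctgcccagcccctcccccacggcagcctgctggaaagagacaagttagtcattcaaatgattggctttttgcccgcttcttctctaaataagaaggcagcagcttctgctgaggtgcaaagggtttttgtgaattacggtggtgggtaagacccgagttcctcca
Tnc: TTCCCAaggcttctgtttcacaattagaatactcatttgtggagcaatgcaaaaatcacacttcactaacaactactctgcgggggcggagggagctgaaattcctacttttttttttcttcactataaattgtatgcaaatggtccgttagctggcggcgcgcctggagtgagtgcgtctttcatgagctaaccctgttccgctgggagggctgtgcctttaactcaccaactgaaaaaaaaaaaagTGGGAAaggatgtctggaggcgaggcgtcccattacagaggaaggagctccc
Vim: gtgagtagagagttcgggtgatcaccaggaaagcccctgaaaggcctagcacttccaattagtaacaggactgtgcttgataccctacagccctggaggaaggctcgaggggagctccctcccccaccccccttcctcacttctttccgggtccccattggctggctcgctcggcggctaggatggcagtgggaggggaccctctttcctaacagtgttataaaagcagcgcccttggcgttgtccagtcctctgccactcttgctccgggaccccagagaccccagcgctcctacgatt
Eomes: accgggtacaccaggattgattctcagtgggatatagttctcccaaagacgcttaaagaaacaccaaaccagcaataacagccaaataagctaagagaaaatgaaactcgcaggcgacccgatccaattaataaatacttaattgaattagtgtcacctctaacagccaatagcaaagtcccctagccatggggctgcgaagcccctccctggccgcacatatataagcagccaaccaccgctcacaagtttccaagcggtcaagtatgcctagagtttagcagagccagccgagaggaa

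TGGGAA occurred in the *Fabp7* window, at position -249 from the start site, and in both windows of *Tnc*, which overlap. The first *Tnc* window held 2 matches, at positions -250 and -2, and the second held 1, the same site as the latter. The other 7 markers had none in their windows. Of the 32851 RefSeq windows of 300 bases 25.56% held TGGGAA, close to its share of the 12 windows here. The overlapping *Tnc* windows count separately in the latter share. Whether the motif has a part in the rises of the 2 genes was not tested. TTGGC, the core of the sites of NFI factors, was present for *Fabp7*, *Vim*, *Sox2* and *Eomes* and in 1 of the 2 windows of *Tnc* and of *Hopx*, and in 46.71% of all windows. The E-box CANNTG, bound by NEUROG2 and related factors, was present for *Fabp7* and *Sox2*, in both windows of *Tnc* and of *Hopx* and in 1 of the 2 of *Pax6*, and in 72.31% of all windows. ACAAT, bound by SOX factors, was present for *Fabp7*, *Nes* and *Neurog2*, in both windows of *Tnc* and in 1 of the 2 of *Pax6* and of *Hopx*, and in 31.02% of all windows. All motifs were searched on both strands and counted separately where their bases could overlap. These are matches of letters and no measure of binding.

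*Pax6* and *Vim* fell, each by less than the rises above. *Pax6* (ENSMUSG00000027168.23, chromosome 2, 105499234 to 105530952, plus strand, GRCm39) encodes the transcription factor that keeps dorsal radial glia neurogenic. Its Deletion libraries gave 23.7, 22.5 and 24.2 CPM and its WT libraries 25.3, 26.9 and 31.0 CPM. The groups did not overlap, and the WT libraries spread more widely, at 27.7 ± 2.93 against 23.5 ± 0.839 CPM (SD, n = 3 each). *Pax6* fell by 11.8%, a log2 fold change of -0.18 (standard error 0.05, limma-trend, adjusted p = 0.0336). Without the factors it was -0.23 (limma-trend, adjusted p = 0.0519), and with DESeq2 -0.24 (adjusted p = 0.0181). With 1 factor in place of 2 the call was lost with all libraries present (limma-trend, adjusted p = 0.0552). It was made again without Deletion library 1, at -0.19 (adjusted p = 0.0443), and without WT library 1, at -0.30 (adjusted p = 0.0179), and stayed lost without each other library (adjusted p = 0.0863 to 0.169).

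*Vim* (ENSMUSG00000026728.11, chromosome 2, 13578738 to 13587639, plus strand, GRCm39) encodes the intermediate filament protein of radial glial fibres. It came to 339.2, 311.3 and 321.7 CPM with the deletion and to 358.6, 354.0 and 343.1 CPM without it. The groups did not overlap, but Deletion library 1 and WT library 3 lay closer to each other than to any other library of their own groups. *Vim* fell by 9.0%, a log2 fold change of -0.14 (standard error 0.03, limma-trend, adjusted p = 0.0242). Without the factors it was -0.12 (limma-trend, adjusted p = 0.0886), and edgeR's quasi-likelihood test without factors gave adjusted p = 0.113. Meningeal and vascular cells also make *Vim*, and the part of the meningeal RNA of Deletion library 1 in its value was not tested. Without Deletion library 1 the fall was -0.16 with 1 factor (limma-trend, adjusted p = 0.0190) and -0.15 without factors (adjusted p = 0.05004). With 1 factor the call was lost without Deletion library 2 (-0.10, adjusted p = 0.109), Deletion library 3 (-0.12, adjusted p = 0.0864), WT library 1 (-0.11, adjusted p = 0.114) or WT library 2 (-0.13, adjusted p = 0.149). Of its transcripts, the coding *Vim-201* held 83.3% of the TPM and was at 290.4 ± 16.0 TPM against 308.5 ± 16.9 TPM in WT. The retained intron transcript *Vim-203* held 15.5%, at 56.7 ± 7.24 against 54.5 ± 9.84 TPM (SD, n = 3 each).

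*Pax6* makes proteins with and without a short coding exon of 42 bases (14 codons) inside the DNA-binding paired domain, at chr2:105515096-105515137 (plus strand, GRCm39), and the form with the exon binds a different DNA sequence. This exon was looked at after the values had been seen. Its sequence is shown because it is what distinguishes the forms.
Pax6 alternative exon: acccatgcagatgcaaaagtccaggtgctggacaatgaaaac

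The 9 transcripts with the exon, some of them not annotated as coding, summed to 3.80, 5.85 and 5.41 TPM in the Deletion libraries. In the WT libraries they summed to 5.92, 6.87 and 9.08 TPM, and the groups did not overlap. Among single tested genes 41.6% did not overlap in CPM. Of these transcripts, *Pax6-201* and *Pax6-206* were at 0 TPM in Deletion library 1, and *Pax6-206* also in WT library 2. The 11 transcripts that span the position without it summed to 15.1, 10.6 and 12.9 TPM against 13.7, 13.2 and 13.2 TPM, and these overlapped. The share with the exon averaged 28.5 ± 7.82% with the deletion against 35.0 ± 5.34% in WT (SD, n = 3 each), and the libraries of the groups overlapped. The division of *Pax6* reads among 26 listed transcripts is itself an estimate, and the test of usage gave adjusted p = 0.840 (limma diffSplice).

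*Sox2*, *Nes* and *Hopx* did not pass the test. *Sox2* (ENSMUSG00000074637.8, chromosome 3, 34704554 to 34706610, plus strand, GRCm39) maintains the progenitor state in radial glia and adult stem cells. It was at 66.5, 66.4 and 68.2 CPM against 66.3, 71.9 and 69.4 CPM in WT, with the Deletion values inside the WT range. The 95% interval of its log2 fold change ran from -0.13 to 0.065 (limma-trend, adjusted p = 0.592). The noncoding gene *Sox2ot* overlaps *Sox2* on the same strand, and its log2 fold change was 0.0074 (limma-trend, adjusted p = 0.910). *Nes* (ENSMUSG00000004891.18, chromosome 3, 87878385 to 87887758, plus strand, GRCm39), the classic neural stem cell filament, was at 155.2, 133.3 and 134.5 CPM against 143.9, 153.6 and 151.8 CPM in WT. Deletion library 1 was the highest of all 6, and the other Deletion libraries were the lowest. The log2 fold change of *Nes* was -0.087 with a 95% interval of -0.17 to -0.0041 (limma-trend, adjusted p = 0.113). Without Deletion library 1 it was -0.15 with 1 factor (limma-trend, adjusted p = 0.0354) and -0.16 without factors (adjusted p = 0.0435), and these were the only alternatives under which *Nes* passed. *Nes* is also made by vascular cells, and the part of the meningeal and choroid plexus RNA of that library in its value was not tested.

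*Hopx* (ENSMUSG00000059325.16, chromosome 5, 77234831 to 77263022, minus strand, GRCm39) marks outer radial glia in other species and quiescent stem cells of the dentate gyrus in the mouse. Its 3 values were 87.7, 85.2 and 81.4 CPM with the deletion, against 78.0, 80.4 and 74.6 CPM in WT. All Deletion values lay above all WT values, but by less than the SD of either group. The log2 fold change was 0.11 with a 95% interval of 0.013 to 0.21 (limma-trend, adjusted p = 0.0931), and its adjusted p lay between 0.0684 and 0.228 under the alternatives. All 3 of its transcripts had fitted log2 fold changes between 0.092 and 0.14, and none of these passed the test.

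The intermediate progenitor genes showed no change that passed. *Eomes* (ENSMUSG00000032446.16, chromosome 9, 118307280 to 118315200, plus strand, GRCm39), also known as Tbr2, is the T-box factor that defines intermediate progenitors. It was at 94.8, 80.2 and 95.9 CPM against 91.5, 93.1 and 89.6 CPM in WT. Deletion library 2 was the lowest of the 6 and the other Deletion libraries were the highest, so the spread was 8.75 CPM in *Mov10* Deletion against 1.80 CPM in WT (SD, n = 3 each). The log2 fold change of *Eomes* was -0.033 with a 95% interval of -0.17 to 0.11 (limma-trend, adjusted p = 0.718), and without Deletion library 2 it was 0.061 (limma-trend with 1 factor, adjusted p = 0.365). *Neurog2* (ENSMUSG00000027967.10, chromosome 3, 127426448 to 127429280, plus strand, GRCm39) is the proneural factor that commits dorsal progenitors to the excitatory neuron fate and activates *Eomes*. It was at 34.4, 20.3 and 27.0 CPM against 30.1, 25.3 and 23.2 CPM in WT, the widest spread among the 9 relative to the mean. Its 95% interval ran from -0.26 to 0.14 on the log2 scale (limma-trend, adjusted p = 0.640), and the sign of its change differed between alternatives, which gave values from -0.30 to 0.23.

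**Figure D3:**
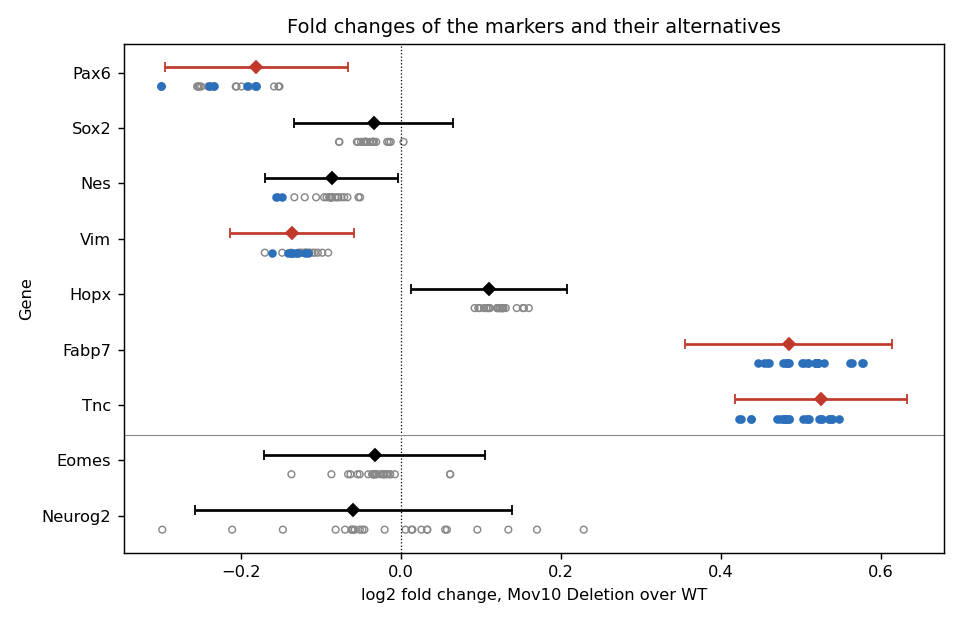
Log2 fold change of each marker (*Mov10* Deletion over WT) with its 95% interval, as diamonds, red where the adjusted p was below 0.05 (limma-trend with 2 factors); the small circles below each are the 25 alternatives, filled blue where they passed. *Fabp7* and *Tnc* stand at 0.48 and 0.52 with every alternative filled, while the circles of *Neurog2* lie on both sides of 0.

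The question of radial glia against intermediate progenitors was taken within each library. Over the 7 radial glia markers, log2 CPM averaged 7.14 ± 0.042 with the deletion against 7.05 ± 0.039 in WT (SD, n = 3 each), and the groups did not overlap. Among single tested genes 41.6% did not overlap. The higher mean was not a shift of all 7. Without factors *Fabp7* (0.52), *Tnc* (0.48) and *Hopx* (0.13) had log2 fold changes above 0. *Pax6* (-0.23), *Vim* (-0.12), *Nes* (-0.090) and *Sox2* (-0.045) were below it. The median log2 fold change of the 7 was -0.034, beside 0.0056 over all tested genes. Over the 2 intermediate progenitor markers the average was 5.61 ± 0.26 with the deletion against 5.61 ± 0.10 in WT, and their median log2 fold change was -0.047. That median was 0.0056 without factors and -0.22 with the sex score, and with 1 library left out it ran from -0.14, without Deletion library 1 and with 1 factor, to 0.14, without Deletion library 2 and without factors. Subtracting the radial glia mean from the intermediate progenitor mean gave -1.53 ± 0.22 with the deletion against -1.44 ± 0.13 in WT, and these overlapped. With 3 libraries against 3, a two-sided exact permutation test gives no p below 0.1, so these ratios are given as a description.

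Ratios between single markers restate the changes of the genes given above and are no further evidence. The log2 ratio of *Fabp7* to *Vim* was 0.18, 0.22 and 0.061 with the deletion, against -0.50, -0.38 and -0.58 in WT, so that *Fabp7* had more counts than *Vim* in every Deletion library and fewer in every WT library. The log2 ratio of *Tnc* to *Vim* was 0.66 ± 0.10 against 0.063 ± 0.15 (SD, n = 3 each), also with no overlap. *Fabp7* stood higher against *Pax6*, *Nes*, *Sox2* and *Hopx* as well, with differences in log2 ratio of 0.76, 0.61, 0.57 and 0.39 and no overlap in any. The ratio of *Eomes* to a radial glia marker depended on the marker. Against *Pax6* it was 1.94 ± 0.094 with the deletion and 1.73 ± 0.17 without, with overlap. Against *Fabp7* it was -2.00 ± 0.19 and -1.46 ± 0.092, and against *Tnc* -2.51 ± 0.11 and -2.01 ± 0.13, with no overlap in either. Its ratios to *Sox2*, *Nes*, *Vim* and *Hopx* all overlapped.

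**Figure D4:**
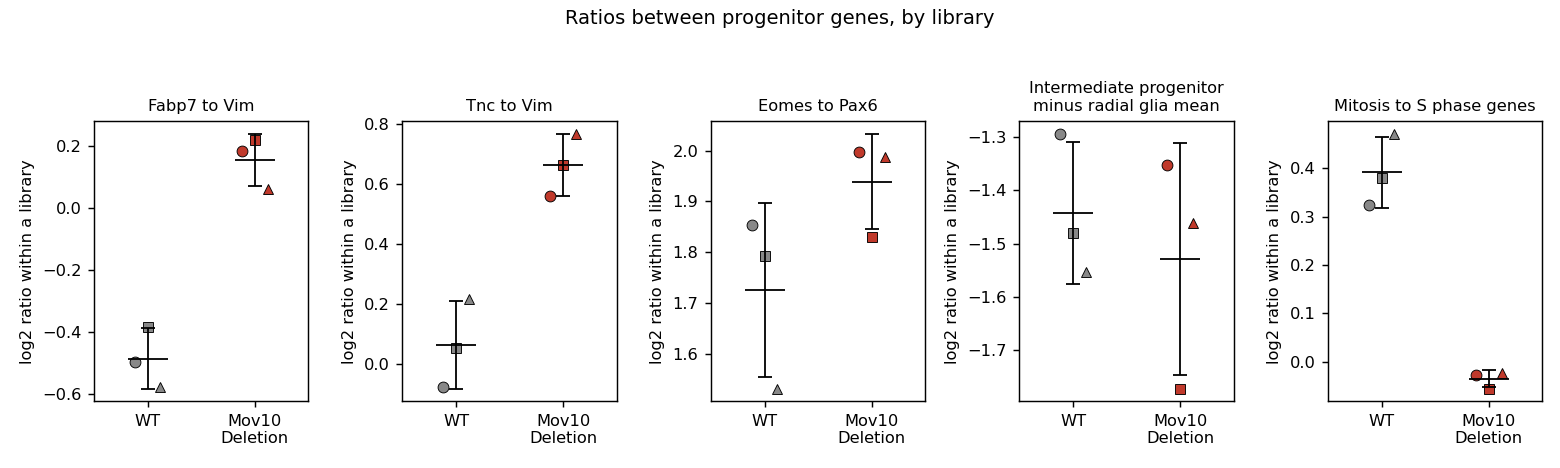
Log2 ratios within each library in WT (grey) and *Mov10* Deletion (red), with circles, squares and triangles for replicates 1, 2 and 3 (not paired) and bars for the mean ± SD (n = 3); the vertical axes differ and do not start at 0. *Fabp7* to *Vim*, *Tnc* to *Vim* and mitosis to S phase genes separate the groups, while *Eomes* to *Pax6* and the difference between intermediate progenitor and radial glia means overlap.

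Other genes of radial glia were called in both directions. Of 30 further radial glia genes, all tested, 4 rose, 12 fell and 14 did not pass, with a median log2 fold change of -0.093. Over all tested genes 12.6% rose and 12.1% fell, the shares to set beside this list and those below. Without the factors 4 rose and 11 fell, and without Deletion library 1 (1 factor) 4 rose and 12 fell, while with the sex score 3 rose and 7 fell. The summed level of the 30 overlapped between the groups, at 3357 to 3430.3 CPM with the deletion against 3325 to 3526 CPM in WT. Among those that fell, *Lhx2*, the LIM-homeodomain factor required for hippocampal identity, went from 401.1 ± 17.1 to 323.4 ± 14.6 CPM (SD, n = 3 each; log2 fold change -0.28, standard error 0.03, limma-trend, adjusted p = 0.00238). *Msi1*, an RNA-binding protein of neural stem cells, fell by 0.25 on the log2 scale (limma-trend, adjusted p = 0.00415). *Gas1*, a co-receptor of the hedgehog pathway, fell by 0.29 (adjusted p = 0.00584). Among those that rose, *Ptprz1*, a receptor phosphatase of radial glia and oligodendrocyte precursors that binds tenascins, went from 369.5 ± 34.9 to 496.9 ± 6.81 CPM (log2 fold change 0.43, standard error 0.07, adjusted p = 0.00516). The others that rose were *Hes5*, a Notch effector (0.46, adjusted p = 0.0161), *Ednrb*, an endothelin receptor (0.58, adjusted p = 0.0116), and *Ddah1*, an enzyme that breaks down methylarginines (0.21, adjusted p = 0.0142), named after their values had been seen. *Hes1*, the other main Notch effector of radial glia, also looked at afterwards, was at -0.22 and did not pass (adjusted p = 0.0946). Nor did *Notch1* (0.049, adjusted p = 0.618) or *Notch2* (-0.018, adjusted p = 0.846, limma-trend). The rest that fell, named afterwards too, were led by *Cdh2* (-0.21, adjusted p = 0.00627), *Lfng* (-0.32, adjusted p = 0.00636) and *Dmrta2* (-0.26, adjusted p = 0.0135). With them fell *Sox1*, *Tead2*, *Emx2*, *Prom1*, *Pdpn* and *Veph1*, at -0.27 to -0.17.

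Of 12 genes of outer radial glia and adult-type neural stem cells, 1 rose and 4 fell, with a median of -0.11. Their log2 fold changes ran from -0.42 to 0.45. Without the factors 1 rose and 2 fell, and by DESeq2 1 rose and 5 fell. Without Deletion library 2 or Deletion library 3, with 1 factor, 1 and 2 fell, and with the sex score none rose and 1 fell. *Etv5*, an effector of FGF signalling, fell by 0.29 on the log2 scale (limma-trend, adjusted p = 0.00790), and *Sfrp1*, a secreted Wnt modulator, by 0.24 (adjusted p = 0.0333). *Lpar1*, a lysophosphatidic acid receptor, was called at -0.42 (adjusted p = 0.00368), but its libraries overlapped, at 17.4, 10.9 and 12.1 CPM against 16.0, 19.0 and 18.0 CPM, and it did not pass without the factors (adjusted p = 0.0708). *Il6st*, the shared receptor of the interleukin 6 family and LIF, fell by 0.14 (adjusted p = 0.0297) and did not pass without the factors (adjusted p = 0.0533).

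Of 14 further intermediate progenitor genes, none rose and 2 fell (limma-trend), where 12.6% of all tested genes rose and 12.1% fell. Their median log2 fold change was -0.045. At an unadjusted p below 0.05, 1 was higher and 3 were lower. By the quasi-likelihood test and by limma-trend without factors, 1 rose, the gene *Neurog1* described below, and 2 fell. DESeq2 gave the same counts, but the gene that rose was another one, since *Neurog1* had no adjusted p there. With 1 factor, 0 fell without Deletion library 2 or WT library 2, and 1 without Deletion library 3 or WT library 3. Without WT library 1, with 1 factor, 2 rose and 3 fell. *Neurog1*, a proneural factor related to *Neurog2* and named after its values had been seen, was at 0.318, 0.288 and 0.462 CPM against 0.197, 0.146 and 0.104 CPM in WT, with no overlap. Its log2 fold change was 1.00 (standard error 0.32, limma-trend, adjusted p = 0.0543), and it passed without the factors (adjusted p = 0.0308) and by the quasi-likelihood test (adjusted p = 0.0290). It rested on 8 to 33 estimated counts a library and passed the filter on low values through the Deletion libraries alone. *Hes6*, which opposes HES1 and favours neuronal differentiation, went from 60.8 ± 4.39 to 52.6 ± 0.727 CPM (log2 fold change -0.17, standard error 0.04, adjusted p = 0.0191, limma-trend). *Dll3*, a Notch ligand that acts inside the cell, went from 9.11 ± 0.434 to 7.44 ± 0.736 CPM (-0.28, standard error 0.08, adjusted p = 0.0391). Of 12 genes of newborn excitatory neurons, none rose and 2 fell (by DESeq2, 1 and 2; at an unadjusted p, 0 and 3). With 1 factor, 4 fell without WT library 1, 0 without WT library 2 and 1 without each of the others, and with the sex score none fell. The 2 were *Sox4*, at -0.19 (adjusted p = 0.0124), and *Unc5d*, a netrin receptor of migrating neurons, at -0.18 (adjusted p = 0.0167), whose libraries overlapped and which did not pass without the factors (adjusted p = 0.144).

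Genes of the cell cycle, which progenitors share with other dividing cells, split by phase. Of 14 mitosis genes, 13 fell and none rose, with a median log2 fold change of -0.36. Without the factors 12 fell, and none was higher by DESeq2 or at an unadjusted p below 0.05. With 1 library left out, 9 to 14 fell with 1 factor and 6 to 13 without factors, the 6 being reached without Deletion library 2, Deletion library 3, WT library 2 or WT library 3. With the sex score 8 fell, and without a filter 7. *Cdc20*, the activator of the anaphase-promoting complex, went from 23.5 ± 0.588 to 14.8 ± 1.13 CPM (-0.66, standard error 0.07, adjusted p = 0.00176, limma-trend). *Cenpf*, a kinetochore protein, fell by 0.42 (adjusted p = 0.00132), *Aspm*, a spindle pole protein, by 0.49 (adjusted p = 0.00210) and the cyclin *Ccna2* by 0.39 (adjusted p = 0.00226). Of 12 S phase genes, 7 rose and 1, *Mcm7*, fell, with a median of 0.23, and 4 rose without WT library 3 and without factors. With the sex score 1 rose, and without a filter on low values 3 rose. The cyclin *Ccne2* rose by 0.57 (adjusted p = 0.00416), the replication licensing factor *Cdc6* by 0.53 (adjusted p = 0.00661), and the helicase subunits *Mcm3* and *Mcm2* by 0.30 (adjusted p = 0.00454) and 0.25 (adjusted p = 0.00684). The log2 ratio of the summed mitosis genes to the summed S phase genes was -0.035 ± 0.018 with the deletion against 0.39 ± 0.074 in WT (SD, n = 3 each), with no overlap.

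**Figure D5:**
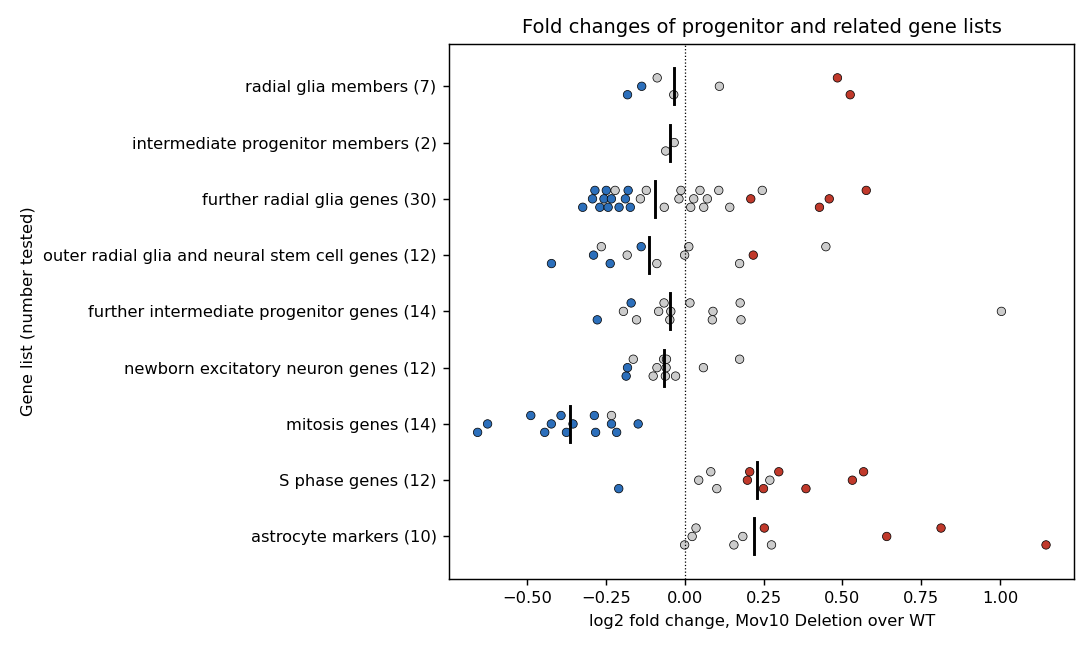
Log2 fold change (*Mov10* Deletion over WT, limma-trend with 2 factors) of each tested gene in the marker lists, red where it rose and blue where it fell at an adjusted p below 0.05, with black bars at the medians. Mitosis genes lie below 0 (median -0.36) and S phase and astrocyte genes mostly above it (medians 0.23 and 0.22), while radial glia genes lie on both sides.

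Some astrocyte markers rose, as did *Fabp7* and *Tnc*, genes that astrocytes also express. Of the other radial glia markers named above as staying on in astrocytes, *Vim* fell (-0.14), and *Sox2* (-0.034) and *Hopx* (0.11) did not pass. Of 10 astrocyte markers, 4 rose, 6 did not pass and none fell, where 12.6% of all tested genes rose. Their median was 0.22, and DESeq2 gave the same counts. *Aqp4*, the astrocyte water channel, was at 45.2, 40.1 and 37.9 CPM against 16.7, 23.4 and 14.1 CPM in WT, a log2 fold change of 1.14 (standard error 0.15, limma-trend, adjusted p = 0.00279). *Gfap*, the astrocyte filament, was at 200.4, 182.6 and 218.2 CPM against 124.5, 142.0 and 109.9 CPM (0.64, standard error 0.09, adjusted p = 0.00376). *Slc4a4*, a bicarbonate transporter, rose by 0.25 (adjusted p = 0.0312) and *S100b* by 0.81 (adjusted p = 0.0425), from 0.360 ± 0.0693 to 0.699 ± 0.149 CPM (SD, n = 3 each). The most abundant, *Aldoc*, did not pass. The list summed to between 1220.4 and 1293 CPM with the deletion, against 1043 to 1160 CPM in WT, and no marker was at 0 in any library. The part of astrocytes in the rises of *Fabp7* and *Tnc* was not tested.

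Markers of other cell types were called in either direction, where 24.7% of all tested genes passed (12.6% higher and 12.1% lower). Counts in these short lists are given beside those shares and are not read as changes of a cell type. Of 6 tested ependymal markers 1 rose, *Ccdc153*, at 1.04 on the log2 scale (limma-trend, adjusted p = 0.00488), and of 6 oligodendrocyte precursor markers 1 fell, *Olig2*, at -0.28 (adjusted p = 0.0423), without passing when the factors were left out (adjusted p = 0.110). Of 10 endothelial and pericyte markers 2 rose and 2 fell, among them *Cldn5*, the tight junction protein, at -0.39 (adjusted p = 0.00152), and *Rgs5*, a pericyte gene, at 0.20 (adjusted p = 0.00647), and these 2 alone passed without the factors. Of 8 Cajal-Retzius markers *Calb2* rose and *Cxcr4* fell, and of 10 interneuron markers *Sst* rose and *Dlx1* fell, of which *Cxcr4* (adjusted p = 0.0571) and *Sst* (adjusted p = 0.0970) did not pass without the factors. None of the 8 microglia markers passed by limma-trend or DESeq2, and 1 was lower at an unadjusted p below 0.05. Of 8 meningeal markers 1 rose and 2 fell, and of 6 tested choroid plexus markers 1 fell, *Ttr*, but limma-trend made none of these calls without the factors, and *Ttr* was at 45.6, 0.786 and 3.75 CPM against 13.4, 11.6 and 5.10 CPM. Of 10 hippocampal neuron markers 2 rose, *Zbtb20*, at 0.28 (adjusted p = 0.0222), and *Wfs1*, at 0.22 (adjusted p = 0.0366). The share of counts from mitochondrial genes was 1.85 to 1.92% with the deletion, against 1.29 to 1.67% in WT. The part of these differences in the changes of the progenitor markers was not tested.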

How the data were processed

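The authors prepared stranded poly(A) libraries from pooled hippocampi, at least 2 P0 pups in each, with 3 libraries per genotype. Groups follow the sample titles. Reads were quantified by the authors with Salmon 1.4.0 (decoy-aware GRCm39 index). The deposited files give estimated counts per transcript, not normalized, and TPM, which the authors' run of Salmon scaled by effective length and depth. The release of the annotation was not stated in the sources used. Transcripts were matched by identifier to GENCODE M39 (137570 of 139225) and summed to genes. The unmatched held 0.589 to 0.600% of counts. TPM are sums of the authors' values.

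Genes with 0.25 CPM in at least 3 libraries were tested with limma-trend on log2 CPM (TMM, prior count 2), with 2 RUVs factors, with Benjamini-Hochberg adjustment across the 16745 (R 4.3.3, limma 3.58.1, edgeR 4.0.16). The study names RUVSeq and 2 factors but not the function, so RUVs was written out in R with all tested genes as controls. The fit left 2 residual degrees of freedom and 5.89 prior ones. Its p-values cover only the spread between pools that the factors left, so values without factors are given beside them. Transcript usage was tested with diffSplice. CPM are TMM-normalized and not corrected for the factors. Depth gave every marker at least 1550 estimated counts per library. Counting error is small beside the spread between pools for most markers. It is not for *Sox2* (67.0 ± 1.02 CPM, SD, n = 3) and *Pax6* (23.5 ± 0.839 CPM) in the Deletion libraries, or for *Eomes* in WT (91.4 ± 1.80 CPM).

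Alternatives changed the factors, added a sex score, or used edgeR's quasi-likelihood test, DESeq2 1.42.0, another normalization, filter or prior count, length-scaled counts, the replicate number as a block, or 1 library fewer. The markers and lists were chosen with earlier results of these data known. Named beside the 9 markers are *Mov10*, the 4 called genes with the smallest p in each list, the most abundant of each cell type list, and transcripts with at least 0.5 TPM. Not every gene the rule takes is given, and others are said to be chosen afterwards.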

Additional observations from a re-analysis of the deposited data

How the results depend on the processing

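*Fabp7* and *Tnc* passed under all 25 alternatives, at 0.45 to 0.58 and 0.42 to 0.55 on the log2 scale, *Nes* passed under 2 of them, and *Hopx*, *Sox2*, *Eomes* and *Neurog2* under none. Of the 9 markers, 4 passed in the fit with 2 factors and 2 without factors, with a sex score, with edgeR's quasi-likelihood test without factors, without a filter and with length-scaled counts. *Pax6* kept its direction but missed the threshold at -0.23 without factors and with 1 factor, -0.25 with the sex score, -0.24 with the quasi-likelihood test and without a filter, -0.16 with upper-quartile normalization, -0.20 with a filter at 1 CPM and -0.21 with length-scaled counts. *Vim* missed it at -0.12 without factors and with the quasi-likelihood test, -0.17 with the sex score, -0.13 without a filter and -0.10 with length-scaled counts. *Neurog2* turned to 0.033 without factors, 0.057 with the quasi-likelihood test, 0.055 with DESeq2, 0.014 without a filter and 0.0054 with length-scaled counts, where *Sox2* turned to 0.0029. The cause of these shifts was not tested.

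Leaving out 1 library at a time, with 1 factor or none, gave -0.30 to -0.15 for *Pax6*, -0.16 to -0.091 for *Vim*, -0.16 to -0.051 for *Nes*, -0.087 to 0.061 for *Eomes* and -0.21 to 0.23 for *Neurog2*, between 2 and 5 markers past the threshold, and between 1768 and 3963 genes in all. A group left with 2 libraries then takes its spread partly from the other group. Against 4137 genes called, the sex score left 1364 and no filter 925. The lists of progenitor, newborn neuron and cell cycle genes held 46 calls, 23 with the sex score, 17 without a filter and 24 to 54 when a library was left out. With upper-quartile normalization 60.9% of calls were higher, against 50.9%.

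Replicate numbers are shared by the titles of the groups. Deviations of same-numbered libraries from their group means correlated at 0.011, -0.071 and 0.043, and Deletion library 1 correlated best with WT library 2 (0.103), so the numbers were not taken to pair the libraries. With a replicate block and no factors 3425 genes were called, *Vim* missed the threshold at -0.12 (limma-trend, adjusted p = 0.0967) and *Neurog2* was at 0.033. With 3 pooled libraries a group, the spread between pools limits most of these comparisons more than depth does.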
